A study of Mus musculus with 6 samples.

Results

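The mature arms of the mouse hairpins mir-99a, mir-99b, mir-100, mir-125a and mir-125b were followed in the miRNA content of extracellular vesicles (EVs). The members were chosen by name, and 7 of the 1966 mature miRNAs in the count table were taken: mmu-miR-99a-5p, mmu-miR-99b-5p, mmu-miR-99b-3p, mmu-miR-100-5p, mmu-miR-125a-5p, mmu-miR-125a-3p and mmu-miR-125b-5p, written from here on without the mouse prefix. EVs are membrane particles that cells release, among them exosomes. Small RNA libraries had been made from 3 colon EV and 3 BMDC EV preparations. Colon EVs came from colon explants, pieces of the organ with all its cell types, kept for 16 hours in medium with exosome-depleted serum. They were isolated by differential centrifugation, and fraction 2 of an iodixanol density gradient was sequenced. BMDC EVs came from bone marrow cultures turned into dendritic cells over 7 days with GM-CSF, in complete medium. The labels give the gradient to colon preparations only, and the study's methods name it for colonic EVs. The study's results section names it for both sources. All 6 libraries carry the label Rab27A fl/fl, a floxed allele of a GTPase of exosome release, and no Cre is named. The study's methods give C57BL/6 mice of both sexes, aged 8 to 12 weeks, for its experiments in general. Whether replicates came from separate animals is not given in the sources used here, so p-values measure only the spread between these preparations.

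A miRNA is cut from a hairpin precursor, and either arm, 5p or 3p, can be loaded into an Argonaute protein. Bases 2 to 8, the seed, largely decide which mRNAs are repressed, so miRNAs with the same seed form a family. The genes of miR-99, miR-100, miR-125a and miR-125b lie in ancient clusters in which a miR-99 or miR-100 hairpin, a let-7 hairpin and a miR-125a or miR-125b hairpin follow each other. The miR-99/100 family is known for repressing mTOR, a growth-controlling kinase. miR-125a and miR-125b are the vertebrate relatives of worm lin-4, for which their family is named here, and are known for their part in blood cell formation, and let-7 is known for repressing growth and stem cell genes.

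The RefSeq mature sequences (GRCm38.p6) of the members' 5p arms are shown because they carry the 2 seeds by which the values are grouped. Each is given 5′ to 3′ with its seed in capitals. The miR-99/100 family shares the seed ACCCGUA:
miR-99a-5p: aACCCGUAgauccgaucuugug
miR-100-5p: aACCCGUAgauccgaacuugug
miR-99b-5p: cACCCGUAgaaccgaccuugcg
The lin-4 family shares the seed CCCUGAG, and miR-351-5p, which is no member, is shown because it has the same seed and was present in all 6 libraries:
miR-125a-5p: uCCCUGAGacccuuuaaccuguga
miR-125b-5p: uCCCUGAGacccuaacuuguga
miR-351-5p: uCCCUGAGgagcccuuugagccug
Counting positions from 1 at the 5′ end, miR-99a-5p and miR-100-5p differ by 1 substitution, U16A with the base of miR-99a-5p first. miR-99b-5p differs from miR-99a-5p by 4 substitutions, A1C, U11A, U16C and U21C. miR-125a-5p and miR-125b-5p share their first 13 bases and are 3 edits apart. miR-125a-5p and miR-351-5p share their first 8 bases. The members' 3p arms have seeds of their own:
miR-99b-3p: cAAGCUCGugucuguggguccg
miR-125a-3p: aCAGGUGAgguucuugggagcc

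The hairpins lie in 3 clusters on the plus strand (GRCm38, GENCODE vM21). In the mir-99b/mir-125a cluster on chromosome 17, Mir99b is at chr17:17830188-17830257, Mirlet7e starts 0.164 kb further on and Mir125a, at chr17:17830812-17830879, starts 0.624 kb from the start of Mir99b. Mir99b and Mirlet7e lie in introns of the protein-coding gene Spaca6, and Mir125a overlaps an exon of it. In the mir-99a/mir-125b cluster on chromosome 16, Mir99a is at chr16:77598936-77599000, Mirlet7c-1 starts 0.721 kb and Mir125b-2, at chr16:77646273-77646343, 47.3 kb from its start. These hairpins lie in introns of the noncoding host gene Mir99ahg, and Mir125b-2 also overlaps an exon of C130023A14Rik. In the mir-100/mir-125b cluster on chromosome 9, Mir100 is at chr9:41531425-41531504, Mirlet7a-2 starts 5.29 kb and Mir125b-1, at chr9:41581926-41582002, 50.5 kb from its start. All of the latter lie in introns of the noncoding genes 3110039I08Rik and Gm49317, and Mir125b-1 also overlaps an exon of Gm28119. miR-125b-5p is therefore made at a pair of loci, which its counts do not separate, whereas miR-99a-5p, miR-99b-5p, miR-100-5p and miR-125a-5p each mark 1 locus.

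The total count was between 173358 and 645303 in colon EVs and between 83997 and 178454 in BMDC EVs. At these totals 3 counts, taken as the limit that a count of 0 allows, were worth 4.65 to 17.3 CPM (counts scaled to the library total) in colon EVs, against 16.8 to 35.7 CPM in BMDC EVs. The 8 epithelial markers fixed for the comparison, of the miR-200, miR-192 and miR-194 families, ranged in their sum from 224242 to 297558 CPM over colon EV libraries, against 3741 to 7915 CPM over BMDC EV libraries, and all 8 were lower in the latter. The 7 haematopoietic markers ranged from 5136 to 11901 CPM over colon EV libraries, against 306619 to 323239 CPM over BMDC EV libraries, and all 7 were higher there. Both labels thus had the markers of their source, though the lists were chosen with earlier results of these data known and are no independent check.

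The mir-99b/mir-125a cluster supplied most of what was measured of the members. Its arms made up 86.4% ± 2.31 (SD, n = 3) of the members' summed counts in colon EVs and 94.2% ± 1.52 in BMDC EVs. All 7 members together held 0.845% ± 0.188 of the library counts in colon EVs and 0.440% ± 0.0700 in BMDC EVs. Libraries of the sources did not overlap for either share, and the two-sided exact permutation test gave p = 0.1 for each, the smallest that 3 against 3 libraries allows. In colon EVs the order by mean CPM was miR-125a-5p, miR-125b-5p, miR-99b-5p, and in BMDC EVs miR-125a-5p, miR-99b-5p, miR-125b-5p, with no overlap between neighbours among these 3. The other 4 members had at most 38.7 CPM in any library, other than miR-99b-3p in BMDC EV 3, and the order among them is not separated by the libraries.

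**Figure D1:**
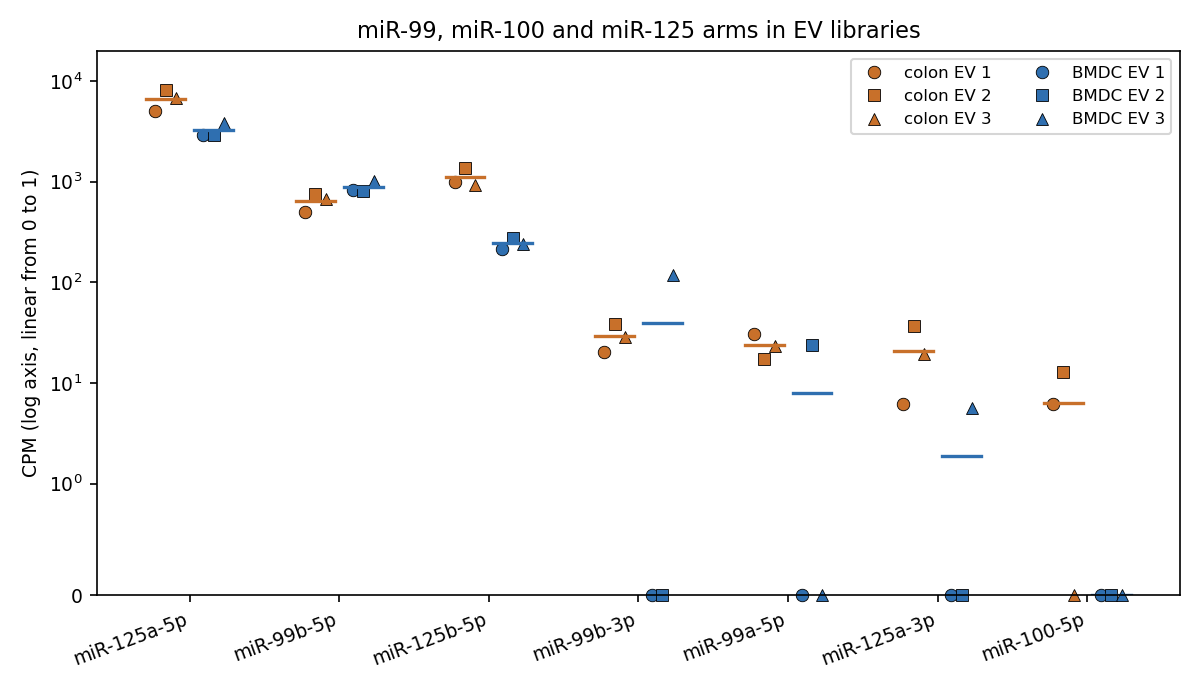
CPM of the 7 members in each library, with orange for colon EV, blue for BMDC EV, a symbol for each replicate and a bar at the mean of each source. The axis is logarithmic above 1 CPM and linear from 0 to 1. miR-125a-5p and miR-125b-5p lie lower in all 3 BMDC EV libraries than in any colon EV library, and 4 members have BMDC EV libraries at 0.

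miR-125a-5p, the most abundant member in both sources, and miR-125b-5p fell in BMDC EVs, whereas miR-99b-5p did not pass the test. The comparison used edgeR's quasi-likelihood test over the 220 miRNAs that reached 10 counts in 3 or more libraries, with Benjamini-Hochberg adjustment over all of them. Of the 7 members, 3 passed this filter, and miR-99a-5p, miR-99b-3p, miR-100-5p and miR-125a-3p did not. Of the 3, 2 passed the test, both lower in BMDC EVs, and the same 2 had normalized counts that did not overlap between the sources. The background was high, as 169 of the 220 miRNAs passed (76.8%), 80 of them lower in BMDC EVs (36.4%), and in 81.8% the sources did not overlap, so the members' count is not a result about the members in itself. With the added requirement of a base level (normalized counts averaged over all libraries) of at least 100, 85 of the 220 passed (38.6%), among them the same 2 members.

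The median log2 fold change of all tested miRNAs, BMDC EV over colon EV, was 0.19 with TMM scaling. It was 0.64 with library totals alone and 0.06 with DESeq2's size factors. Relative to the median of all tested miRNAs, miR-125a-5p was at −1.66, miR-125b-5p at −2.83 and miR-99b-5p at −0.17.

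Within the mir-99b/mir-125a cluster, miR-125a-5p had 4997, 8079 and 6789 CPM in colon EV 1, 2 and 3 and 2942, 2903 and 3839 CPM in BMDC EV 1, 2 and 3. All colon EV libraries were above all BMDC EV libraries. Normalized counts averaged 1477 ± 286 (SD, n = 3) for colon EVs and 530 ± 113 for BMDC EVs, giving a log2 fold change of −1.47 (SE 0.231, 95% interval −1.96 to −0.99, edgeR adjusted p = 1.23e-05) or a 2.78-fold lower level.

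miR-99b-5p had 496, 757 and 681 CPM in colon EV 1, 2 and 3 and 824, 813 and 1007 CPM in BMDC EV 1, 2 and 3. The CPM were higher in all BMDC EV libraries, while the normalized counts, 121.8, 167.5 and 141.95 for colon EVs and 129.0, 130.5 and 173.6 for BMDC EVs, overlapped. They averaged 143.7 ± 22.9 and 144.4 ± 25.3. The log2 fold change was 0.02 (SE 0.271, 95% interval −0.55 to 0.59, edgeR adjusted p = 0.961), which leaves room for a change of that interval's size in either direction. Its sign also turned with the scaling, from 0.46 with library totals alone to −0.13 with DESeq2's size factors, and no alternative gave an adjusted p below 0.123.

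let-7e-5p, whose hairpin lies between the other two, moved as miR-125a-5p did. It fell from a normalized count of 914 ± 111 in colon EVs to 340 ± 71.0 in BMDC EVs, with a log2 fold change of −1.43 (SE 0.225, edgeR adjusted p = 1.30e-05). The ratio of let-7e-5p to miR-125a-5p counts, which no scaling touches, was 0.624 ± 0.0472 in colon EVs and 0.645 ± 0.0975 in BMDC EVs, and these ratios overlapped between the sources (exact permutation p = 0.9).

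The ratio of miR-99b-5p to miR-125a-5p, by contrast, was between 0.0937 and 0.1003 in the 3 colon EV libraries and between 0.262 and 0.280 in the 3 BMDC EV libraries. The means were 0.0977 ± 0.00351 and 0.274 ± 0.0103. The log2 difference of 1.49 stood against a within-source SD of 0.0535, and the exact permutation p was 0.1, the smallest possible. Against let-7e-5p the ratio of miR-99b-5p was 0.157 ± 0.00660 in colon EVs and 0.431 ± 0.0604 in BMDC EVs, again without overlap (log2 difference 1.45, exact permutation p = 0.1).

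The difference within clusters was tested with edgeR's test for differential usage, over 105 miRNAs in 44 clusters of hairpins under 10 kb apart. A hairpin alone counted as a cluster where both its arms were tested. In that test 8 of the 105 passed (7.62%). Among them miR-423-3p, miR-345-5p and miR-101b-5p were set only against the other arm of their own hairpin. The share is therefore not one of neighbouring hairpins alone. Usage is the log2 fold change of a miRNA minus that of the summed counts of its whole cluster, in which miR-125a-5p and let-7e-5p weigh most. miR-99b-5p was 1 of the 8, with a usage of 1.34 (edgeR adjusted p = 0.00145). miR-125a-5p was at −0.15 (adjusted p = 0.997) and let-7e-5p at −0.11 (adjusted p = 0.997). Without colon EV 2 the usage of miR-99b-5p was 1.32 with an adjusted p of 0.0782, so that no member passed. Without BMDC EV 1 the number of members that passed was 2. The added member was not miR-125a-5p (usage −0.18, edgeR adjusted p = 0.99996). It was miR-99b-3p, the only other member in that test, with 0 and 21 counts in BMDC EV 2 and 3. All its BMDC EV counts thus came from 1 library. Fits with 1 library left out asked for 10 counts in 2 or more libraries, not 3. By that filter miR-99b-3p entered this fit and those without colon EV 2, colon EV 3 or BMDC EV 2.

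**Figure D2:**
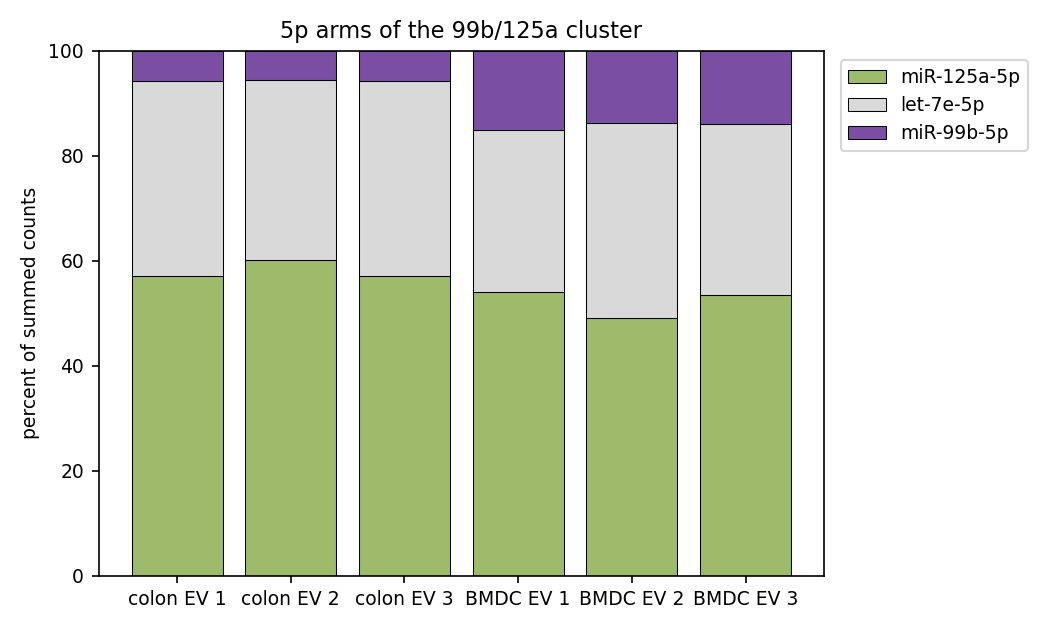
Stacked bars of the percent of the summed counts of miR-99b-5p, let-7e-5p and miR-125a-5p that each took in each of the 6 libraries. The miR-99b-5p part is between 5.63% and 5.72% in colon EVs and between 13.8% and 15.1% in BMDC EVs.

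As parts of the cluster's 5p counts, miR-99b-5p made up 5.67% ± 0.0417 in colon EVs and 14.3% ± 0.735 in BMDC EVs. let-7e-5p made up 36.2% ± 1.70 and 33.5% ± 3.25, and miR-125a-5p 58.1% ± 1.74 and 52.2% ± 2.68. miR-125a-5p remained the leading product of the cluster in every library, and miR-99b-5p the least.

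The 3p arms of this cluster were rare. miR-99b-3p had 13, 9 and 5 counts in colon EV 1, 2 and 3 and 0, 0 and 21 in BMDC EV 1, 2 and 3. BMDC EV 3 alone thus held all BMDC EV counts of this arm. Of the counts of both arms of mir-99b, the 3p arm took 3.90% (95% exact Clopper-Pearson interval 2.09 to 6.58) in colon EV 1, 4.86% (2.25 to 9.03) in colon EV 2 and 4.07% (1.33 to 9.23) in colon EV 3. The 3 colon EV values differed by less than these intervals. In BMDC EV 1 it took 0% with an upper bound of 3.48%, in BMDC EV 2 0% with an upper bound of 5.28%, and in BMDC EV 3 10.5% (6.58 to 15.5). The BMDC EV libraries therefore differed among themselves by more than counting error, which is all that these intervals cover, and no arm preference of the source can be read from them.

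miR-125a-3p had 4, 8.5 and 3.33 counts in colon EV 1, 2 and 3 and 0, 0 and 1 in BMDC EV 1, 2 and 3. It took between 0.124% and 0.450% of the mir-125a counts in colon EVs and at most 0.146% in BMDC EVs, with upper bounds of 0.984% for BMDC EV 1 and 1.5005% for BMDC EV 2, both at 0. A difference in arm choice of mir-125a was not detectable at this depth. None of the members' hairpins had both arms past the count filter, so the arm usage test, which 38 hairpins entered, could not be made for them.

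miR-125b-5p showed the larger drop of the lin-4 family. It had 1004, 1369 and 930.5 CPM in colon EV 1, 2 and 3 and 213, 279 and 240 CPM in BMDC EV 1, 2 and 3, with a wide gap between the sources. Normalized counts averaged 248 ± 54.5 for colon EVs and 39.7 ± 5.53 for BMDC EVs. The log2 fold change was −2.65 (SE 0.301, 95% interval −3.28 to −2.01, edgeR adjusted p = 2.62e-07), a 6.26-fold lower level. By level it stood at rank 60 of the 220 tested miRNAs in colon EVs and at rank 136 in BMDC EVs, while miR-125a-5p went from rank 27 to rank 39 and miR-99b-5p from rank 80 to rank 71.

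**Figure D3:**
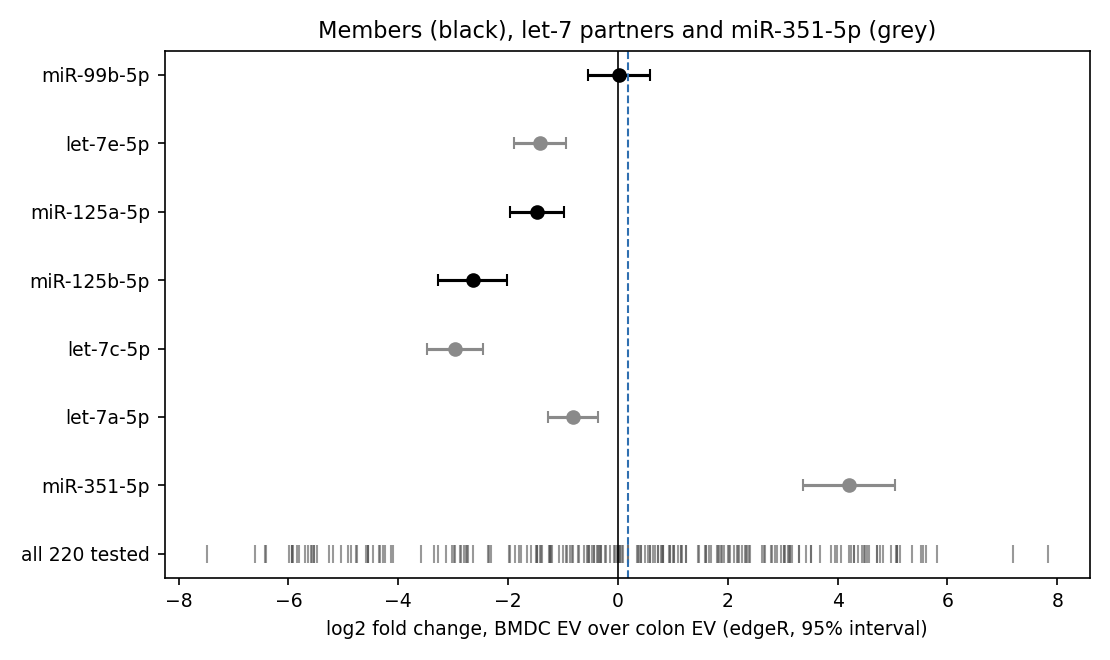
Log2 fold change of BMDC EV over colon EV with its 95% interval from edgeR for the 3 tested members (black) and for the let-7 partners and miR-351-5p (grey), above ticks for all 220 tested miRNAs. The dashed line marks the median of all tested miRNAs, 0.19. miR-99b-5p lies at 0.02, away from let-7e-5p and miR-125a-5p of its cluster, and miR-351-5p lies at 4.21.

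The miR-99 and miR-100 hairpins that share clusters with mir-125b gave few counts. miR-99a-5p had 20, 4 and 4 counts in colon EV 1, 2 and 3, or 31.0, 17.2 and 23.1 CPM, and 0, 2 and 0 counts in BMDC EV 1, 2 and 3. miR-100-5p had 4, 3 and 0 counts in colon EV 1, 2 and 3 and 0 in all 3 BMDC EV libraries. Both were near or under the limit of 3 counts in BMDC EVs, so no fold change is given. miR-99a-3p and miR-100-3p were at 0 in all 6 libraries. miR-125b-2-3p had 6.5, 2 and 2 counts in colon EV 1, 2 and 3 and none in BMDC EVs, and miR-125b-1-3p 1, 0 and 1.

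In the miR-99/100 family miR-99b-5p therefore stood nearly alone, with 95.3% ± 2.00 of the family's 5p counts in colon EVs and 99.1% ± 1.64 in BMDC EVs. As a whole it held 0.0675% ± 0.0130 of the library counts in colon EVs and 0.0890% ± 0.0102 in BMDC EVs (exact permutation p = 0.1, the smallest possible). This difference turned to −0.00246 percentage points with TMM-scaled library sizes as the denominator. Since miR-99b-5p was the 1 tested member of its seed family, no usage test within that family could be made.

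The let-7 partners of the mir-125b loci were far more abundant than the members beside them. let-7c-5p, which other loci can also supply, fell from a normalized count of 25436 ± 2791 in colon EVs to 3247 ± 183 in BMDC EVs, with a log2 fold change of −2.97 (SE 0.239, edgeR adjusted p = 2.16e-09). let-7a-5p, which likewise has more than 1 locus, had a log2 fold change of −0.81 (SE 0.215, edgeR adjusted p = 0.00205). The 3p partners let-7c-1-3p, let-7e-3p and let-7a-2-3p had at most 2 counts in any library.

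**Figure D4:**
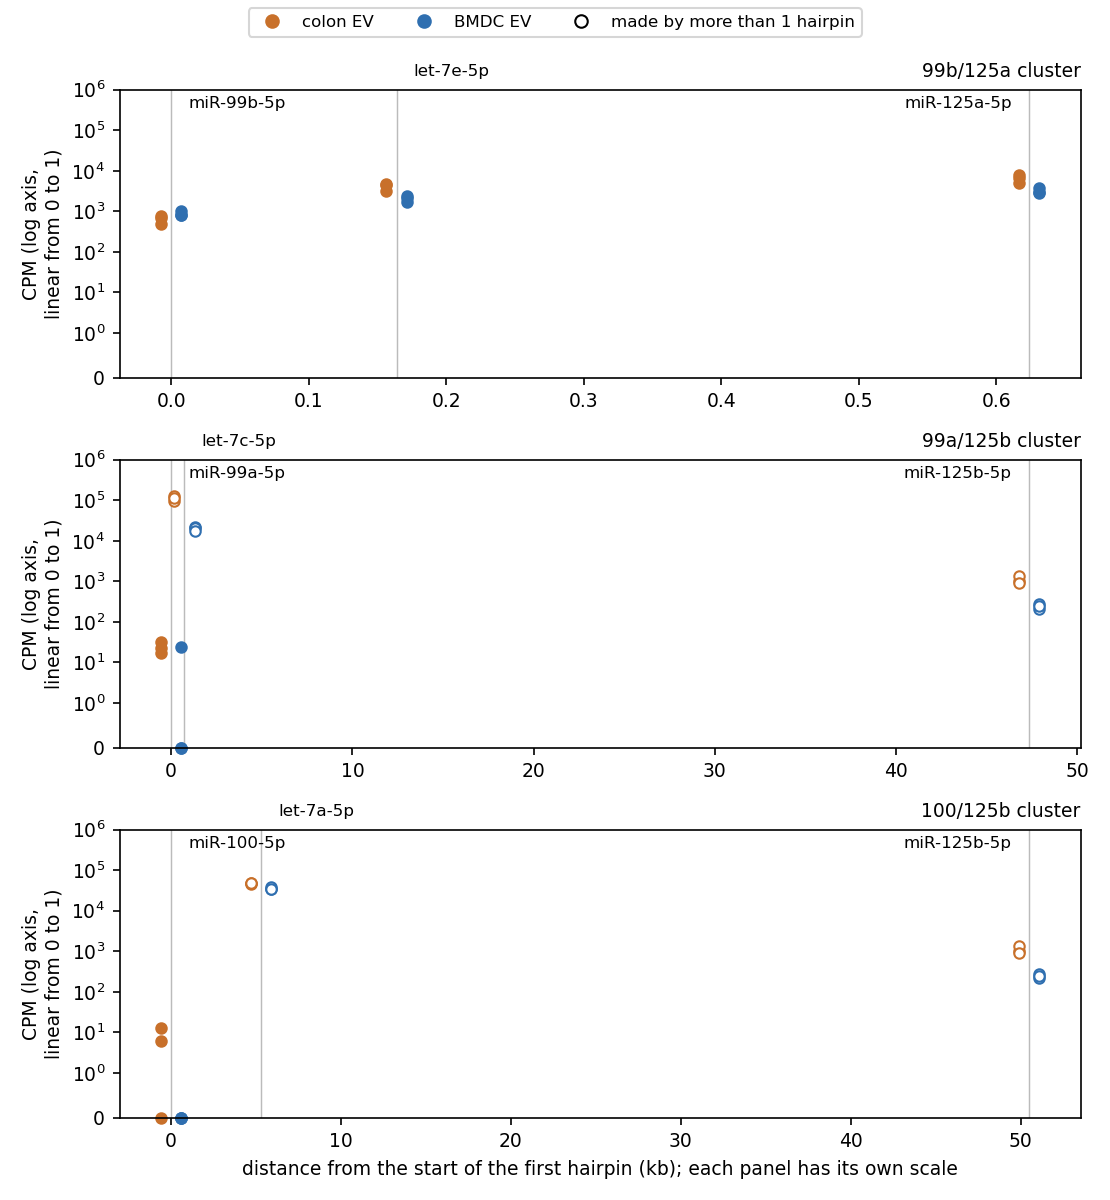
CPM of the 5p products of the 3 clusters in each library (orange for colon EV, blue for BMDC EV), placed by the distance in kb of their hairpins from the start of the first hairpin, with a scale for each panel. Open circles mark miRNAs made by more than 1 hairpin, whose counts do not separate the loci. miR-99a-5p and miR-100-5p reach at most 31.0 CPM in colon EVs while miR-125b-5p lies at 213 CPM or more in every library.

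Among 97 miRNAs that are no members and had a base level of at least 100, the likest pattern over the 6 libraries was found for each 5p member by the root mean square difference of centred log2 normalized counts. For miR-125a-5p it was let-7e-5p (0.140) followed by miR-320-3p (0.249), against a median over the candidates of 1.57. For miR-125b-5p it was let-7c-5p (0.264), closely followed by let-7b-5p (0.272). For miR-99b-5p it was let-7d-5p (0.231) and then miR-29a-3p (0.257), not its cluster neighbours. For miR-99a-5p it was miR-126a-3p (0.503) and for miR-100-5p miR-320-3p (0.451), both from few counts of the member. These are descriptions over 6 libraries of 2 sources.

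In the lin-4 seed family the drop was unequal and another miRNA rose. miR-125b-5p was at 0.169 ± 0.0319 of the miR-125a-5p count in colon EVs and at 0.0770 ± 0.0172 in BMDC EVs, without overlap (log2 difference −1.14, exact permutation p = 0.1, the smallest possible). miR-351-5p, made from an X-linked hairpin at chrX:53053255-53053353 on the minus strand, had 24.8, 34.4 and 63.5 CPM in colon EV 1, 2 and 3 and 962, 857 and 1.03e+03 CPM in BMDC EV 1, 2 and 3. The lowest BMDC EV library was far above the highest colon EV library. It rose with a log2 fold change of 4.21 (SE 0.397, edgeR adjusted p = 2.16e-08).

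Usage within seed families was tested over 63 miRNAs in 23 families, of which 20 passed (31.7%). Relative to the log2 fold change of the family's summed counts, most of which are miR-125a-5p, miR-125b-5p was at −1.39 (edgeR adjusted p = 0.000338), miR-351-5p at 5.46 (adjusted p = 4.75e-13), and miR-125a-5p was at −0.22 (adjusted p = 0.624). With miR-351-5p left out of the family, an alternative chosen after the data were seen, miR-125b-5p was at −1.05 with an adjusted p of 0.00815. miR-6367 and miR-6394, which also have this seed, were at 0 in all 6 libraries.

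**Figure D5:**
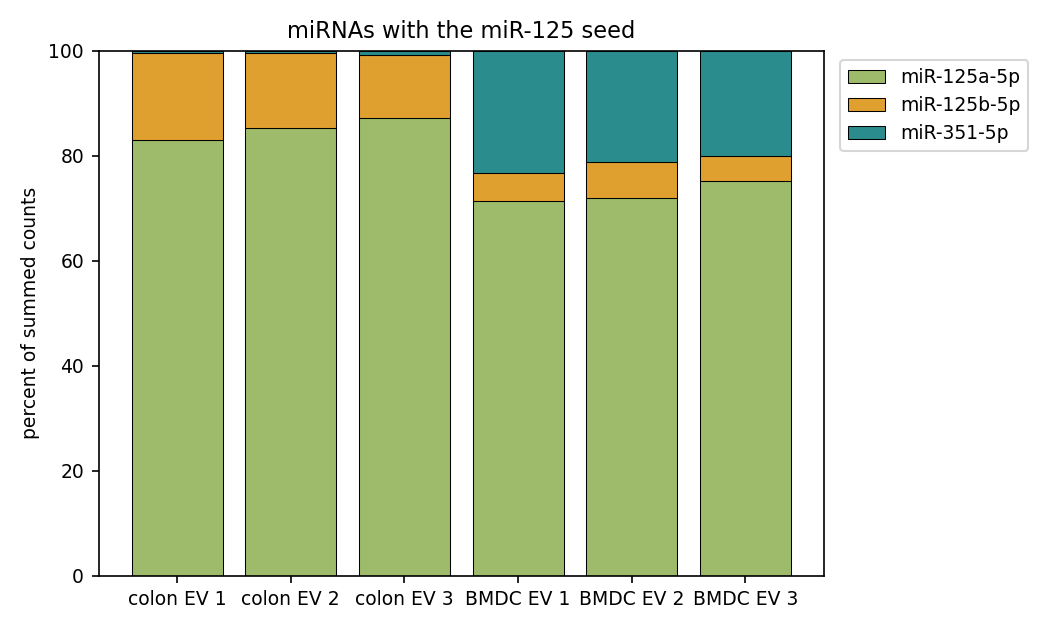
Stacked bars of the percent of the summed counts of miR-125a-5p, miR-125b-5p and miR-351-5p that each took in each of the 6 libraries. miR-351-5p is between 0.363% and 0.815% in colon EVs and between 20.1% and 23.4% in BMDC EVs, and miR-125b-5p is smaller in every BMDC EV library.

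By share of the family's counts, miR-125a-5p led in both sources, with 85.1% ± 2.15 in colon EVs and 72.8% ± 2.06 in BMDC EVs. miR-125b-5p was in second place in colon EVs, with 14.4% ± 2.35, and had 5.59% ± 1.16 in BMDC EVs. miR-351-5p had 0.530% ± 0.248 in colon EVs and was in second place in BMDC EVs with 21.6% ± 1.67. In BMDC EVs miR-351-5p had 3.96 times the count of miR-125b-5p (SD 0.773, range 3.07 to 4.52), and in colon EVs 0.0393 times (SD 0.0250).

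Some markers of other cell types moved with the source as well. Of the 7 muscle and mesenchyme markers 2 passed the count filter and both fell. The 7 ranged in their sum from 1351 to 2080 CPM over colon EV libraries, against 86.0 to 250.0 CPM over BMDC EV libraries. Most of the colon EV sum was miR-143-3p, with a mean of 1362 CPM. Among the untested ones, miR-133a-3p had means of 0.517 CPM in colon EVs and 13.9 CPM in BMDC EVs. Both lay under what 3 counts were worth in BMDC EVs, so no rise can be read. The means of miR-1a-3p were 13.2 and 8.21 CPM, and those of miR-145a-5p 46.5 and 9.92 CPM. miR-199a-5p and miR-214-3p were at 0 in all BMDC EV libraries. Their colon EV means, 10.3 and 0.517 CPM, lay under what 3 counts were worth in BMDC EVs, so these zeros show no drop. The 2 endothelial markers ranged from 679 to 1027 CPM, against 239 to 646 CPM, and both fell. Of the 3 red cell markers none was tested. Their sum was at most 51.9 CPM in a colon EV library and 58.4 to 131 CPM in BMDC EV libraries. By mean, miR-486a-5p was at 0 CPM in colon EVs and 58.7 CPM in BMDC EVs. The means of miR-451a were close, at 23.0 and 26.8 CPM, and those of miR-144-3p were 1.03 and 0 CPM. The sum is therefore not a rise of all 3. miR-122-5p, a liver miRNA also found in serum, rose from between 71.3 and 138 CPM to between 570 and 801 CPM (edgeR adjusted p = 1.03e-05). The part of these cell types and of serum in the members' values was not tested. In such bulk preparations fewer vesicles of a cell type and less miRNA per vesicle cannot be told apart, nor can the source be told apart from the medium or, if it was used for colon EVs only, from the gradient.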

How the data were processed

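Small RNA had been extracted with a miRNeasy Micro kit and prepared for sequencing with QIAseq miRNA reagents. What the authors deposited are estimated counts of each mature miRNA in each library, not normalized. The submitters' processing notes name STAR 2.7.6a, featureCounts 1.6.3, DESeq2 1.30.1 and GRCm38/mm10, and the miRNA annotation and the use of molecular identifiers are not given in the sources used here. Of the 42 member values 16 were not whole, so reads may have been divided among similar sequences, such as miR-125a-5p and miR-125b-5p. All columns matched a library by label.

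Counts were rounded and compared in R 4.3.3 with edgeR 4.0.16 (TMM, quasi-likelihood test, no block), over miRNAs that reached 10 counts in 3 or more libraries. With 1 library left out, 10 counts in 2 or more libraries were enough. Log2 fold changes are BMDC EV over colon EV. Normalized counts are counts scaled by TMM library size. Usage within seed families and clusters was tested with diffSpliceDGE of edgeR on the same fit, which sets each miRNA against the summed counts of its group, itself included, and its natural-log coefficients were converted to log2. Of the 220 tested miRNAs, 195 had a RefSeq mature sequence and entered the seed grouping. miR-125b-5p was left out of the cluster test because it has hairpins in more than 1 cluster. Shares and ratios used unrounded counts and two-sided exact permutation tests. Adjusted p under 0.05 passed. Replicates differed by at least 6.25 chi-square per degree of freedom, so none was a duplicate. The scripts were tested on simulated data. Alternatives included DESeq2 1.42.0 and limma 3.58.1 with voom, other scalings and filters, a replicate block, and libraries thinned to 83980 counts. Figures were drawn with matplotlib 3.10.9.

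Named miRNAs are the 7 members, the other arms of their hairpins, their let-7 partners, miRNAs with a member's seed, the 2 likest miRNAs of each 5p member and the markers. The members and lists were chosen with earlier results of these data known. The other experiments of the study were not analysed here.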

Additional observations from a re-analysis of the deposited data

How the results depend on the processing

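The drop of miR-125a-5p kept its direction and passed in all 17 alternatives that tested it by itself (log2 fold change −1.96 without a count filter to −0.97 with thinned libraries). That of miR-125b-5p did so in all 17 as well (−3.15 to −2.12). The sign of miR-99b-5p was not fixed: it was −0.13 with DESeq2's size factors in edgeR, with DESeq2 and with edgeR's own filter, −0.47 without a count filter, and between −0.20 and 0.091 with 1 library left out. Relative to the median of all tested miRNAs it was between −0.76 and −0.15 in all 17. With miR-125a-5p and miR-125b-5p summed to 1 feature, the number of members passing was 1 in place of 2 by construction, also among those lower and those with a base level of at least 100, and the sum had a log2 fold change of −1.61 (adjusted p = 3.52e-06). Members passing the usage test within clusters ranged from 0 (without colon EV 2) to 2 (without BMDC EV 1) when 1 library was left out. Those fits asked for 10 counts in 2 or more libraries, so miR-99b-3p also entered without BMDC EV 1, BMDC EV 2, colon EV 2 or colon EV 3. Without BMDC EV 1 it was the added member, and miR-125a-5p did not pass the usage test. Without colon EV 2 the miRNAs past the count filter were 250 in place of 220. Why no member passed in that fit was not tested. The difference in the members' share of the counts, −0.404 percentage points, was −0.607 with TMM-scaled library size and −0.756 without the 10 most abundant miRNAs. That of the miR-99/100 5p arms turned to −0.00246 percentage points with TMM-scaled size. The usage of miR-125a-5p in its seed family turned to 0.12 without miR-351-5p (adjusted p = 0.809).

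Same-numbered libraries did not deviate together (correlations −0.137, −0.0497 and −0.134). These values gave no sign of a pairing by number but cannot exclude one. With a replicate block 2 members passed, and 1 each by usage within seed families and clusters, as without it, and miR-125a-5p was at −1.48, miR-125b-5p at −2.62 and miR-99b-5p at 0.01. Arm usage and its alternatives were not run, since 0 of the members' hairpins had both arms tested. In the fit without a count filter over 771 miRNAs, miR-99a-5p also passed (adjusted p = 0.0468), and its fold change then depends on the prior count. Depth limits miR-99a-5p, miR-100-5p and the 3p arms.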
